A study of Mus musculus with 24 samples.

Results

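Xirp2, Synpo2l, Flnc, Pdlim1, Ldb3, Nrap, Csrp3, Ankrd1, Des and Xirp1 are a set of 10 heart muscle genes whose proteins sit at the Z-disc or at the intercalated disc. The genes were chosen by symbol, with earlier results of these data known. Every probe that the platform annotation gives to 1 of these symbols was taken. Of the 10 genes, 9 had a probe, with 22 probes in all among the 19057 genes that had a probe of 1 symbol. Xirp1, which encodes the other Xin repeat protein of heart muscle, had no probe under that symbol and was not analysed here. Of the 22 probes, 19 were kept because their detection p-value was under 0.05 on at least 3 of the 24 arrays, and all 9 genes kept at least 1 probe. The probe that stands for each gene, its brightest, was detected on all 24 arrays in every group.

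The Z-disc anchors the thin filaments of neighbouring sarcomeres by crosslinking actin, and the intercalated disc joins heart muscle cells end to end. Both bear the force of contraction, and both hold adaptor proteins that move between structure and signalling when the load on the muscle changes. The genes of several of these adaptors, among them Ankrd1 and Xirp2, are known to be expressed more highly in stretched, hypertrophic or failing heart muscle, and mutations in human DES, FLNC, LDB3 and CSRP3 cause cardiomyopathy.

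The arrays came from hearts of female FVB/N mice, transgenic or wild type. The transgene makes a dominant negative form of the CELF proteins, RNA binding regulators of splicing, which goes to the nucleus and is driven in postnatal heart muscle by the mouse α-myosin heavy chain promoter. The mild line (MHC-CELF∆-574) makes less of this protein than the severe line (MHC-CELF∆-10). Each is a single hemizygous transgenic line, so a feature of the line and the dose of the transgene cannot be told apart. At 3 weeks of age there were 3 mild line, 3 severe line and 4 wild type hearts, and at 24 weeks 5 mild line, 5 severe line and 4 wild type hearts, with 1 array per heart. Wild type mice were transgene-negative littermates, 2 from each line at each age. RNA was taken from whole hearts, in which fewer cells of a type and less RNA per cell cannot be told apart.

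The values are log2 intensities after quantile normalization of the Illumina MouseWG-6 v2 arrays. A gene is said to have risen or fallen where limma gave an adjusted p under 0.05 over the 12011 genes tested, and differences are log2 differences of group means ± SE. Between 32.0% and 44.4% of probes were detected on an array. The arrays of severe line heart 5 at 24 weeks (44.4%) and wild type heart 2 at 24 weeks (43.4%) had the largest shares. The lowest raw intensity split the arrays into 12 of higher and 12 of lower background, and each group had arrays of both kinds, with 2 hearts of each line at 3 weeks among the higher and 1 among the lower. The array numbers in the labels form 4 runs of 6 successive arrays, and 1662 genes differed between runs at an adjusted p under 0.05, Ankrd1 alone among the members (adjusted p = 0.0022). Of 5 ventricular markers measured (Myh6, Actc1, Tnni3, Myl2 and Myl3), none rose or fell in either line at either age, and each was detected on all 24 arrays. Myh6, Myl2 and Myl3 lay between 14.24 and 15.16, near the highest value of any probe (15.16), and Tnni3 between 9.88 and 12.29. Whether values so near the top can register a change was not tested. The 5 endothelial markers did not pass the test in any of these 4 comparisons.

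The sequence before the annotated starts of the members is given as a description. Of the 9 measured genes, 9 had a RefSeq start in GRCm38.p6, with 13 windows of 250 bases in all. Each window was searched on both strands for the CArG box, bound by serum response factor, for the MEF2 site, and for the M-CAT element (CATTCC). MEF2 sites lay in 3 windows, those of Xirp2 and both starts of Synpo2l, against 2.92% of the 32851 windows of all genes. A CArG box lay in 2 overlapping windows, both of Ldb3, against 1.47%. M-CAT elements lay in 2 windows, of Ankrd1 and 1 start of Flnc, against 12.64%. No motif overlapped another. The windows of Pdlim1, which rose in both lines at both ages, and those of Des, Nrap and Csrp3 held no match. The windows below are those of the 2 genes with the largest differences in the severe line at 24 weeks, of Ldb3, the member that fell, and of Ankrd1, whose probes differed. They run to the base before the start, and capitals mark the matches.
Xirp2 (chr2:67445752-67446001, plus strand; MEF2 site at -74 to -65 from the start): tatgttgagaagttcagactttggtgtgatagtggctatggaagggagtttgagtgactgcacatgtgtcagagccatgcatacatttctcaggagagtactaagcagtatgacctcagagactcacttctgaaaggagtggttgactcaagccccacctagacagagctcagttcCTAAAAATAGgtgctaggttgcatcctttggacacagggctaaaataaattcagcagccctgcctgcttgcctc
Synpo2l, first start (chr14:20668355-20668604, minus strand; MEF2 site at -109 to -100): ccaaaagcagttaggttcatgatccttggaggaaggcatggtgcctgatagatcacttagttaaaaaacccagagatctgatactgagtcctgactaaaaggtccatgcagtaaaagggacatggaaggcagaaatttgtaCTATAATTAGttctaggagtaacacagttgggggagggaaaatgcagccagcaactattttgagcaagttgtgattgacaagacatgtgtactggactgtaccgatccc
Synpo2l, second start (chr14:20664575-20664824, minus strand; MEF2 site at -144 to -135): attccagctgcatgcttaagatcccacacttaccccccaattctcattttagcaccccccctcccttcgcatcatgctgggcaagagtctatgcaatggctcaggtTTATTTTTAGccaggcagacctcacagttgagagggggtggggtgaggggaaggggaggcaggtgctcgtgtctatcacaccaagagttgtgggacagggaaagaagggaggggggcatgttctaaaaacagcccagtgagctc
Ldb3 (chr14:34588682-34588931, minus strand; CArG box at -35 to -26): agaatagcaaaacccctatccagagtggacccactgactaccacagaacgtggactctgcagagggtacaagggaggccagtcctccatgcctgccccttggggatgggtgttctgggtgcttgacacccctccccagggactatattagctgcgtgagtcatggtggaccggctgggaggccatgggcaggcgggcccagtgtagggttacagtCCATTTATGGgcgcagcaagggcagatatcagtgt
Ankrd1 (chr19:36119845-36120094, minus strand; M-CAT elements at -210 to -205 and -123 to -118, on the opposite strand): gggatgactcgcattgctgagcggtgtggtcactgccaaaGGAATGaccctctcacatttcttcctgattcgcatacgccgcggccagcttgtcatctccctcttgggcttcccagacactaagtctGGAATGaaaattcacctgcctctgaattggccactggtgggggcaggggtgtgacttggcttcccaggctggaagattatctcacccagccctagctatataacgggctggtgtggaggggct

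In the mild line at 3 weeks, 4 of the 9 members rose and none fell. These were Pdlim1, Synpo2l, Xirp2 and Flnc, by 0.88 to 1.35 log2. Over all genes 2.33% passed in this comparison, and 1.07% passed as higher. The median difference of the members was 0.63 log2, beside 0.01 for all genes. In the severe line at 3 weeks, 5 members rose and none fell. These were Xirp2, Synpo2l, Flnc, Pdlim1 and Des, by 0.70 to 1.55 log2. All genes gave 4.62% in either direction and 2.66% as higher, and the medians were 0.70 for the members and 0.00 for all genes. Since the genes were chosen with earlier results of these data known, these counts and medians describe the set and do not test it.

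At 24 weeks the count in the mild line was 1 of 9, Pdlim1, against 0.966% of all genes in either direction and 0.425% as higher. The median of the members was still 0.41, beside 0.01 for all genes, and all 9 differences were positive. In the severe line at 24 weeks 5 members rose and 1, Ldb3, fell, against 15.6% of all genes in either direction and 8.26% as higher, and the median was 0.71. The methods of the study ask for an adjusted p under 0.05 or an unadjusted p under 0.001, with a fold change of at least 2. The study combined its new arrays with earlier ones from mice of 3 weeks, which were not used here. The threshold was put on the fit of the 24 arrays alone, so the counts are not those of the study. At that threshold the mild line count was 3 at 3 weeks (0.583% of all genes) and 0 at 24 weeks (0.208%). The severe line count was 3 at 3 weeks (0.566%) and 2 at 24 weeks (1.57%).

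At 3 weeks the mild line lay wholly above wild type for 7 members, against 7.58% of all genes, and wholly below for 1, Csrp3, against 7.1%. The severe line lay wholly above for 7, against 8.54%, and both lines did so for 6, against 3.65%. At 24 weeks the mild line lay wholly above wild type for 2 members, against 2.16% of all genes, the severe line for 4, against 6.49%, and both for 1, Flnc, against 1.17%. When the run of 6 arrays entered the fit as a block, the counts were 5 members in the mild line at 3 weeks, where Des was added (0.57, adjusted p = 0.034), and 7 in the severe line at 24 weeks, where Ankrd1 was added. The shares of all genes that passed, given above, belong to the fit without this block. Those of the blocked fit are not given here. Within each run that held both groups, every rise called in either line at either age was positive, in 3 of 3 runs at 3 weeks and 4 of 4 at 24 weeks. For each of these rises except Pdlim1 in the severe line at 24 weeks, the line lay wholly above wild type. That fixes the sign within runs in advance, so the runs add no separate support.

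**Figure D1:**
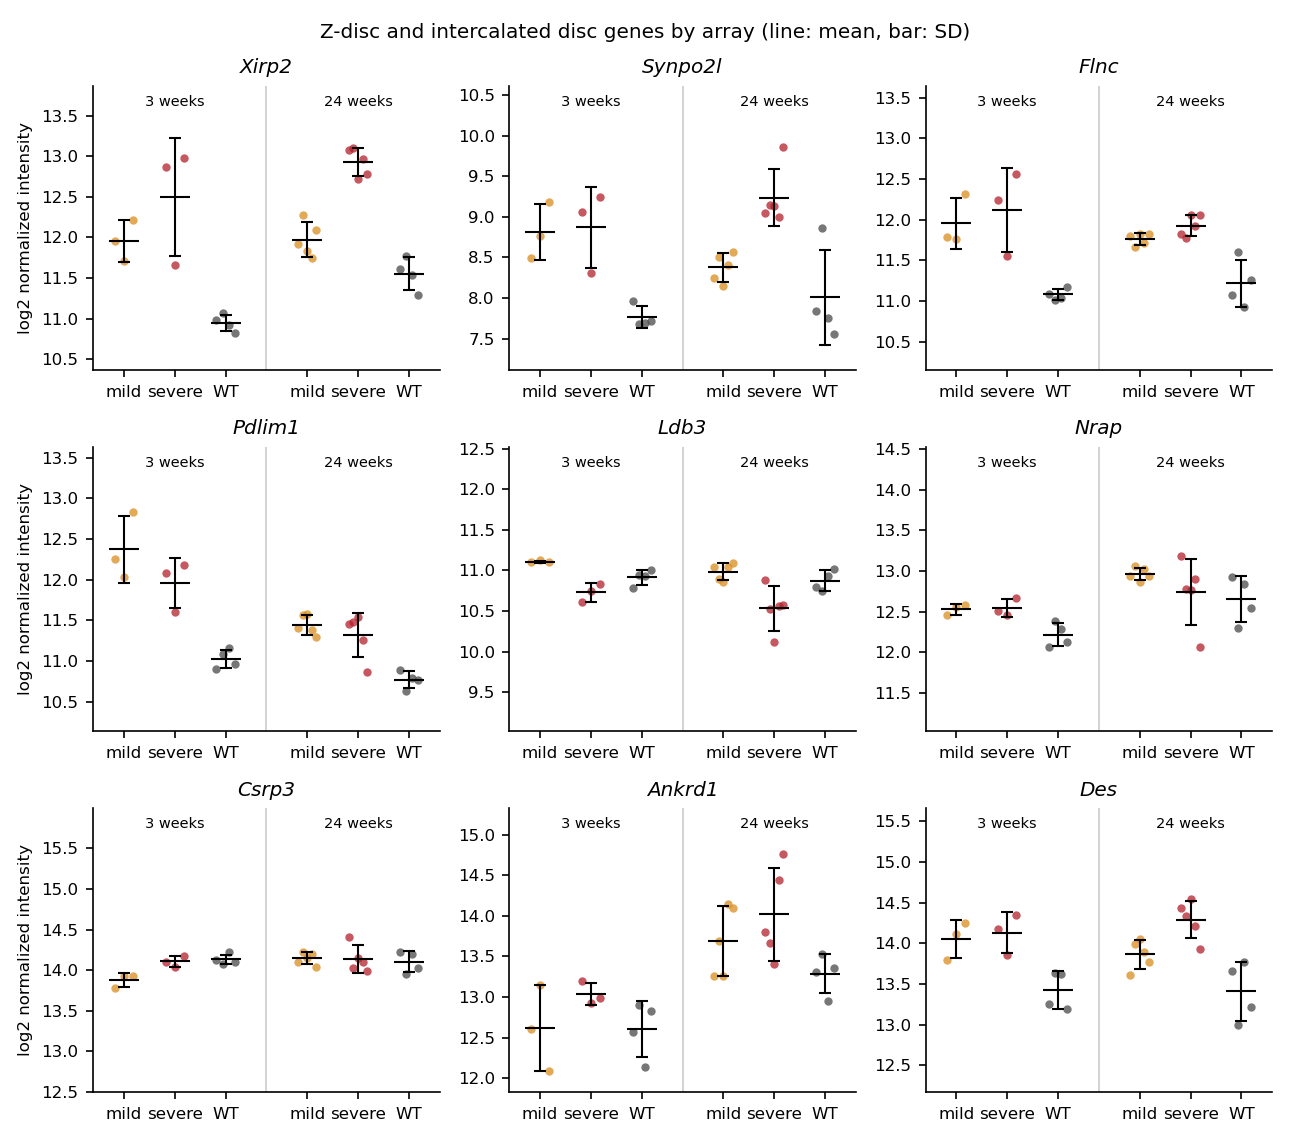
Log2 normalized intensity of the 9 measured genes on each of the 24 arrays (y axis) in mild line, severe line and wild type (WT) hearts at 3 and 24 weeks (x axis). Points are single hearts, horizontal lines means and bars SD. All transgenic points at 3 weeks lie above all wild type points for Xirp2, Synpo2l, Flnc, Pdlim1, Nrap and Des (3.65% of all genes), and at 24 weeks the severe line lies wholly above wild type for Xirp2, Synpo2l, Flnc and Des (6.49% of all genes).

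Xirp2 encodes a protein with Xin repeats that binds actin filaments and, in heart muscle, lies at the intercalated disc. It measured 11.95, 11.71 and 12.21 in mild line hearts and 12.86, 11.66 and 12.97 in severe line hearts at 3 weeks, against 10.98, 11.07, 10.92 and 10.82 in wild type hearts. Neither line overlapped wild type, and severe line heart 2 lay with the mild line rather than with the other severe line hearts. The differences were 1.01 ± 0.21 in the mild line (adjusted p = 0.0075) and 1.55 ± 0.21 in the severe line (adjusted p = 8.6e-05). The call in the mild line was lost without mild line heart 3 (0.88, adjusted p = 0.083), with median scaling of the raw intensities (1.04, adjusted p = 0.22) and on the arrays of higher background alone (0.81, adjusted p = 0.27). On those arrays the severe line call was lost as well (1.24, adjusted p = 0.071).

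At 24 weeks Xirp2 measured 11.93, 12.28, 11.83, 11.75 and 12.09 in mild line hearts and 13.07, 13.10, 12.72, 12.96 and 12.78 in severe line hearts, against 11.61, 11.78, 11.53 and 11.29 in wild type hearts. The 5 severe line hearts lay above every mild line and wild type heart, while 1 of the 5 mild line hearts fell within the wild type range. The severe line difference was 1.38 ± 0.19 (adjusted p = 1.3e-05), and on the arrays of higher background alone it was 1.40, on those of lower background 1.41. The mild line difference was 0.42 ± 0.19 and did not pass (adjusted p = 0.53). In wild type hearts the level at 24 weeks differed from that at 3 weeks by 0.60 ± 0.20 (adjusted p = 0.12). A second Xirp2 probe gave smaller differences in the same direction. For mild line hearts it passed at neither age, with 0.52 ± 0.23 at 3 weeks (adjusted p = 0.40) and 0.28 ± 0.20 at 24 weeks (adjusted p = 0.89). For severe line hearts it was 0.84 ± 0.23 at 3 weeks (adjusted p = 0.036 over 18907 probes) and 0.55 ± 0.20 at 24 weeks (adjusted p = 0.076). On it the severe line hearts at 24 weeks ran from 7.49 to 8.95, with heart 5 lowest, below all 4 wild type hearts (7.64 to 8.00). The remaining Xirp2 probe was detected on 0 arrays and not kept.

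Synpo2l encodes a relative of myopodin that binds actin and α-actinin at the Z-disc. At 3 weeks it measured 8.49, 8.77 and 9.18 in mild line hearts and 9.06, 8.31 and 9.25 in severe line hearts, against 7.97, 7.68, 7.70 and 7.72 in wild type hearts. No transgenic heart overlapped wild type. The differences were 1.05 ± 0.26 for the mild (adjusted p = 0.026) and 1.10 ± 0.26 for the severe line (adjusted p = 0.012). The mild line call was lost without mild line heart 2 or 3 or wild type heart 2, 3 or 4 (0.86 to 1.07, adjusted p = 0.064 to 0.21), and the severe line call without severe line heart 1 or 3 (1.01 and 0.92, adjusted p = 0.089 and 0.12). Both calls were also lost with median scaling, with the wild type littermates of the own line only, and within either background set (0.80 to 1.54, adjusted p = 0.062 to 0.48).

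At 24 weeks Synpo2l measured 8.25, 8.51, 8.15, 8.41 and 8.56 in mild line hearts and 9.04, 9.14, 9.14, 9.00 and 9.86 in severe line hearts, against 7.84, 8.87, 7.76 and 7.56 in wild type hearts. Wild type heart 2 stood above all 5 mild line hearts, and severe line heart 5 stood above the other 4. The severe line difference was 1.23 ± 0.23 (adjusted p = 0.00041), with 1.52 without wild type heart 2 and 1.07 without severe line heart 5. On the arrays of higher background alone it was 0.74 (adjusted p = 0.16), and on those of lower background 1.67 (adjusted p = 0.0053). The mild line difference was 0.37 ± 0.23 (adjusted p = 0.82).

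Flnc encodes filamin C, the muscle filamin, which crosslinks actin at Z-discs, costameres and intercalated discs. At 3 weeks it measured 11.79, 11.76 and 12.32 in mild line hearts and 12.24, 11.55 and 12.56 in severe line hearts, against 11.09, 11.01, 11.04 and 11.18 in wild type hearts. The wild type hearts had an SD of 0.07 (n = 4) and all lay below every transgenic heart. The differences were 0.88 ± 0.17 (adjusted p = 0.0048) and 1.04 ± 0.17 (adjusted p = 0.00086), and the mild line call was lost without mild line heart 3 (0.70, adjusted p = 0.076), with median scaling (0.90, adjusted p = 0.35) and with littermates of the own line only (0.85, adjusted p = 0.056). On the arrays of higher background both calls were lost (0.72 and 0.85, adjusted p = 0.15 and 0.090).

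At 24 weeks Flnc measured 11.80, 11.66, 11.82, 11.71 and 11.83 in mild line hearts and 11.83, 11.77, 12.05, 11.93 and 12.05 in severe line hearts, against 11.07, 11.61, 10.93 and 11.26 in wild type hearts. All 10 transgenic hearts were above all wild type hearts, with mild line heart 2 only just above wild type heart 2. The severe line difference was 0.71 ± 0.15 (adjusted p = 0.0021). The call was lost with median scaling (0.74, adjusted p = 0.075) and on the arrays of higher background alone (0.46, adjusted p = 0.21), while those of lower background gave 0.91 (adjusted p = 0.0043). The mild line difference of 0.55 ± 0.15 did not pass (adjusted p = 0.12), and it passed without wild type heart 2 (0.68, adjusted p = 0.032). The second Flnc probe was detected on 0 arrays.

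Pdlim1 encodes a PDZ and LIM domain protein that binds α-actinin, and it was the one member that rose in both lines at both ages. At 3 weeks it measured 12.25, 12.03 and 12.83 in mild line hearts and 12.08, 11.60 and 12.18 in severe line hearts, against 10.90, 11.08, 11.15 and 10.97 in wild type hearts. Neither line overlapped wild type, while the lines overlapped each other. The difference was 1.35 ± 0.17 in the mild line (adjusted p = 2.0e-05) and 0.93 ± 0.17 in the severe line (adjusted p = 0.0014). The mild line call at 3 weeks passed under all 20 alternatives tried (1.12 to 1.78 log2), and the severe line call was lost on the arrays of lower background alone (1.12, adjusted p = 0.11), which hold 1 severe line heart of that age.

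At 24 weeks Pdlim1 measured 11.41, 11.56, 11.58, 11.38 and 11.30 in mild line hearts and 11.45, 11.48, 11.54, 11.26 and 10.87 in severe line hearts, against 10.88, 10.63, 10.79 and 10.76 in wild type hearts. The mild line lay wholly above wild type, and severe line heart 5 lay within its range. The differences were 0.68 ± 0.15 (adjusted p = 0.016) and 0.55 ± 0.15 (adjusted p = 0.0098). The mild line call was lost without mild line heart 2 (0.65, adjusted p = 0.056) or wild type heart 2 (0.63, adjusted p = 0.061), and also with median scaling, with littermates of the own line only, and within either background set (0.60 to 0.73, adjusted p = 0.13 to 0.72). The severe line call was lost with littermates of the own line only (0.54, adjusted p = 0.077) and on the arrays of lower background (0.45, adjusted p = 0.26). The mild line difference changed by -0.67 ± 0.22 between 3 and 24 weeks, the member with the smallest unadjusted p in that test (0.0060), and the change did not pass (adjusted p = 0.92).

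Ldb3 encodes cypher, or ZASP, a PDZ and LIM domain protein that binds α-actinin and is made in several splice forms. On its brightest probe it measured 11.10, 11.12 and 11.10 in mild line hearts and 10.61, 10.75 and 10.83 in severe line hearts at 3 weeks, against 10.79, 10.94, 10.93 and 11.01 in wild type hearts. Here the lines lay on opposite sides of wild type, at 0.19 ± 0.12 (adjusted p = 0.63) and -0.18 ± 0.12 (adjusted p = 0.49), and neither passed. At 24 weeks it measured 11.04, 10.89, 10.85, 11.05 and 11.09 in mild line hearts and 10.88, 10.53, 10.11, 10.56 and 10.58 in severe line hearts, against 10.80, 10.75, 10.93 and 11.02 in wild type hearts. Of the 5 severe line hearts, 4 were below all wild type hearts. The severe line difference was -0.34 ± 0.10 (adjusted p = 0.025), and it did not pass without severe line heart 3 (-0.24, adjusted p = 0.070), without wild type heart 3 or 4 (-0.33 and -0.30, adjusted p = 0.070 and 0.093), or under 7 other alternatives. The arrays of higher background alone gave -0.07 (adjusted p = 0.83), and those of lower background -0.56 (adjusted p = 0.085).

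The 6 kept Ldb3 probes differed among themselves. Severe line hearts at 24 weeks gave, on the probes annotated to NM_001039076, -0.34 ± 0.10 and -0.33 ± 0.15, and on that of NM_001039075, -0.36 ± 0.20. The probe of NM_001039073 gave 0.21 ± 0.10 in the same hearts. That probe was also higher in the mild line, by 0.42 ± 0.11 at 3 weeks (adjusted p = 0.061) and 0.35 ± 0.10 at 24 weeks (adjusted p = 0.14). Its mild line values at 3 weeks, 9.60, 9.66 and 9.75, lay above the wild type values of 9.09, 9.24, 9.27 and 9.40. Of these 4 probes, the brightest alone passed in any comparison, over 18907 probes. The remaining 2 probes, detected on 3 and 7 arrays, differed by at most 0.07 from wild type. The difference between probes was not tested.

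**Figure D2:**
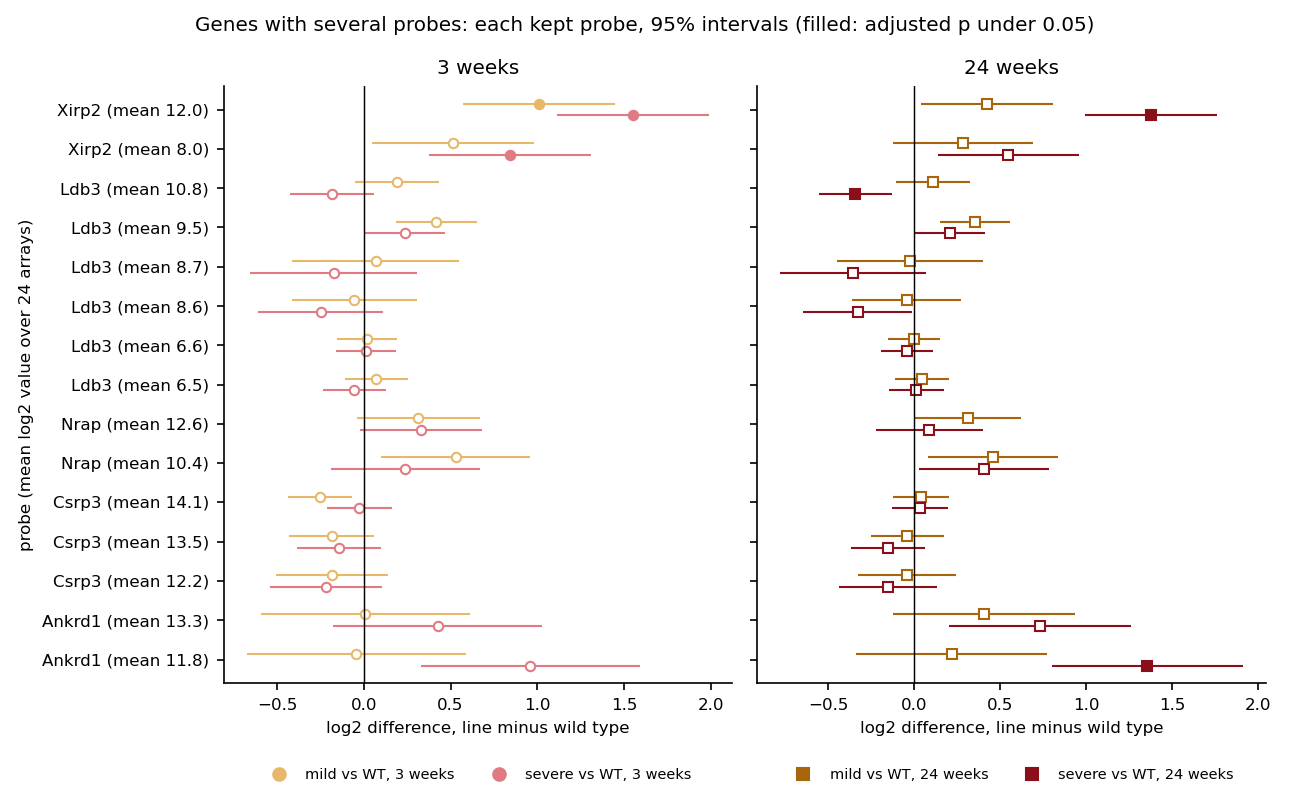
Log2 difference from wild type (x axis, points with 95% intervals) for each kept probe of the 5 genes with more than 1 kept probe (y axis, with the mean log2 value of the probe), in the mild and severe lines at 3 weeks (left) and 24 weeks (right). Filled symbols mark an adjusted p under 0.05 over 18907 probes. The 2 Ankrd1 probes stand at 0.73 and 1.36 in the severe line at 24 weeks, and the Ldb3 probes fall on both sides of 0.

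Nrap encodes a nebulin-related protein of the intercalated disc and of forming myofibrils. It passed in no comparison, on either kept probe. At 3 weeks it measured 12.45, 12.56 and 12.58 in mild line hearts and 12.51, 12.45 and 12.67 in severe line hearts, against 12.07, 12.38, 12.28 and 12.13 in wild type hearts. Neither line overlapped wild type, and the differences were 0.31 ± 0.17 (adjusted p = 0.54) and 0.33 ± 0.17 (adjusted p = 0.36). At 24 weeks the range was 12.86 to 13.06 in mild line hearts and 12.07 to 13.18 in severe line hearts, against 12.30 to 12.92 in wild type hearts. Severe line heart 5 had the lowest value of its group and wild type heart 2 the lowest of its own. The second probe gave mild line differences of 0.53 ± 0.21 at 3 weeks (adjusted p = 0.31) and 0.46 ± 0.18 at 24 weeks (adjusted p = 0.48). Its severe line differences were 0.24 ± 0.21 at 3 weeks (adjusted p = 0.70) and 0.40 ± 0.18 at 24 weeks (adjusted p = 0.18). On the brighter probe the severe line difference at 24 weeks was 0.09 ± 0.15.

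Csrp3 encodes the muscle LIM protein, a Z-disc protein thought to take part in sensing stretch. It passed in no comparison on any of its 3 probes. In mild line hearts at 3 weeks it measured 13.78, 13.92 and 13.93, below all wild type hearts (14.13, 14.08, 14.22 and 14.11), with a difference of -0.25 ± 0.09 (adjusted p = 0.19). At 24 weeks mild line hearts ran from 14.04 to 14.23 and severe line hearts from 13.99 to 14.41, against 13.96 to 14.23 in wild type hearts. The 95% interval of the severe line difference there was -0.13 to 0.20, and that of the mild line difference -0.12 to 0.21.

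Ankrd1 encodes CARP, an ankyrin repeat protein that binds titin in the I-band and also enters the nucleus. On the brighter probe the severe line measured 13.80, 13.67, 13.40, 14.45 and 14.77 at 24 weeks and the mild line 13.26, 13.69, 13.26, 14.14 and 14.09, against 13.31, 13.53, 12.96 and 13.35 in wild type hearts. The severe line difference was 0.73 ± 0.26 and missed the threshold (adjusted p = 0.056). It passed without severe line heart 2 or 3 (0.82 and 0.88, adjusted p = 0.047 and 0.021), when the run of arrays was a block (0.64, adjusted p = 0.0057) and with the replicate block (0.51, adjusted p = 0.035). On the arrays of higher background alone it was 0.32 (adjusted p = 0.41), and on those of lower background 1.05. Within runs 1 to 4 it was 0.49, 0.14, 0.45 and 1.25, each against 1 wild type heart. On the other probe the severe line measured 13.00, 13.13, 12.96, 12.82 and 13.95 at 24 weeks and the mild line 12.09, 12.15, 11.87, 12.01 and 12.04, against 11.75, 12.69, 11.51 and 11.31 in wild type hearts. All 5 severe line hearts were above all other hearts of that age. The difference was 1.36 ± 0.27 from wild type (adjusted p = 0.0011 over 18907 probes) and 1.14 ± 0.25 from the mild line (adjusted p = 0.0051). The mean of both probes rose in the severe line at 24 weeks by 1.04 (adjusted p = 0.0022).

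At 3 weeks neither Ankrd1 probe passed. The brighter one measured 12.61, 13.15 and 12.09 in mild line hearts and 13.19, 12.93 and 12.98 in severe line hearts, against 12.57, 12.91, 12.14 and 12.82 in wild type hearts. The other gave 0.96 ± 0.30 in the severe line (adjusted p = 0.090), where severe line heart 1 (12.41) stood apart from hearts 2 and 3 (11.10 and 11.44). In wild type hearts this second probe was 1.13 ± 0.28 higher at 24 weeks than at 3 weeks (adjusted p = 0.037), and the brighter probe 0.68 ± 0.27 (adjusted p = 0.25).

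Des encodes desmin, the intermediate filament protein that links Z-discs to one another and to the intercalated disc. At 3 weeks it measured 13.79, 14.12 and 14.25 in mild line hearts and 14.18, 13.86 and 14.35 in severe line hearts, against 13.26, 13.63, 13.62 and 13.19 in wild type hearts. All transgenic hearts were above all wild type hearts. The difference passed in the severe line (0.70 ± 0.18, adjusted p = 0.024) and not in the mild line (0.63 ± 0.18, adjusted p = 0.072), where it passed when the run of arrays was a block (0.57, adjusted p = 0.034). The severe line call was lost without severe line heart 1 or 3 or wild type heart 1 or 4 (0.59 to 0.68, adjusted p = 0.075 to 0.18), with littermates of the own line only (0.68, adjusted p = 0.16) and within either background set (0.57 and 0.95, adjusted p = 0.31 and 0.33).

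At 24 weeks Des measured 13.61, 13.99, 14.06, 13.89 and 13.77 in mild line hearts and 14.44, 14.34, 14.54, 14.22 and 13.93 in severe line hearts, against 13.66, 12.99, 13.77 and 13.22 in wild type hearts. Severe line heart 5 was the lowest of its group and wild type heart 2 the lowest of all 24 hearts. The severe line difference was 0.88 ± 0.16 (adjusted p = 0.00032), with 1.06 on the arrays of higher background alone (adjusted p = 0.011) and 0.74 on those of lower background, where the call was lost (adjusted p = 0.12). The mild line difference was 0.45 ± 0.16 (adjusted p = 0.30).

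**Figure D3:**
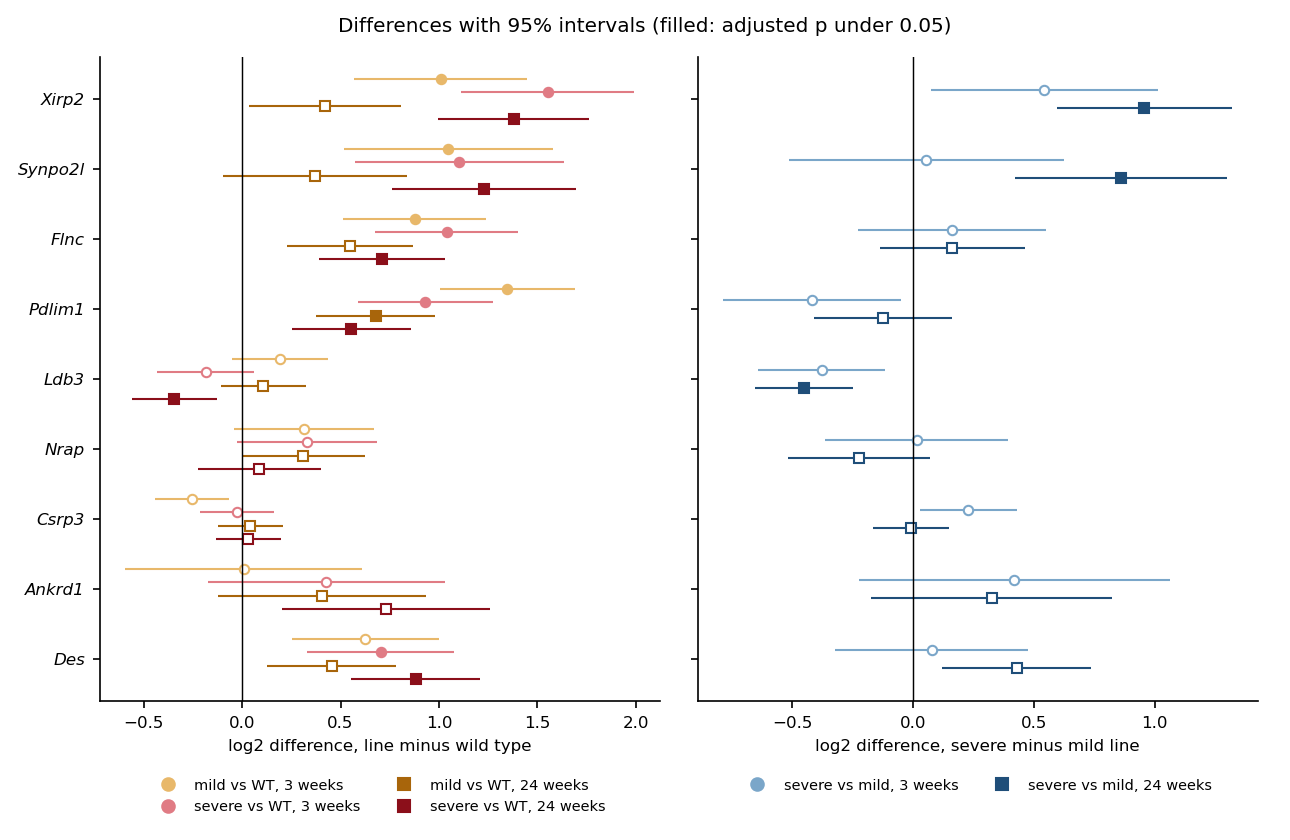
Log2 differences of the 9 genes with 95% intervals (x axis), of each line from wild type at each age (left) and of the severe line from the mild line (right). Filled symbols mark an adjusted p under 0.05 over 12011 genes. At 24 weeks the severe line stands 0.96 and 0.86 above the mild line for Xirp2 and Synpo2l and 0.45 below it for Ldb3.

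The lines were also set against each other, since an effect called in one and not in the other is not thereby shown to differ. At 24 weeks the severe line was higher than the mild line for Xirp2 by 0.96 ± 0.18 (adjusted p = 0.00079) and for Synpo2l by 0.86 ± 0.21 (adjusted p = 0.0091), and lower for Ldb3, at -0.45 ± 0.10 (adjusted p = 0.0033). Over all genes 11.3% passed. On the arrays of higher background alone none of these passed, with 0.99 for Xirp2 (adjusted p = 0.11), 0.71 for Synpo2l (adjusted p = 0.30) and -0.26 for Ldb3 (adjusted p = 0.42). On those of lower background Xirp2 passed (0.94, adjusted p = 0.0077), and Synpo2l (0.96, adjusted p = 0.055) and Ldb3 (-0.58, adjusted p = 0.071) did not. Ldb3 was also lost with median scaling (-0.24, adjusted p = 0.58). For Flnc and Pdlim1 the difference between lines did not pass, and the 95% intervals were -0.14 to 0.46 and -0.41 to 0.16. Des differed by 0.43 ± 0.15 (adjusted p = 0.067), and passed without severe line heart 5 (0.52, adjusted p = 0.023), when the run of arrays was a block (adjusted p = 0.018) and with the replicate block (adjusted p = 0.033).

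At 3 weeks none of the 9 members passed between the lines, against 0.574% of all genes, while 4 had an unadjusted p under 0.05. The share of all genes at that unadjusted level is not given here, so the 4 are not read as a result about the members. Xirp2 was 0.54 ± 0.23 higher in the severe line (adjusted p = 0.60), and 0.96 higher without severe line heart 2 (adjusted p = 0.0022). Pdlim1 was lower in the severe line, at -0.42 ± 0.18 (adjusted p = 0.62). Heart 2 was the lowest of the severe line at 3 weeks for 8 of the 9 members, Ldb3 being the exception, and heart 3 was the highest for 8, Ankrd1 being the exception. In the mild line at 3 weeks, heart 3 was the highest for 7 of 9. The shares of all genes with these hearts lowest or highest are not given here, so the orders are not read as a trait of the members.

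No member passed for wild type hearts between 24 and 3 weeks, against 2.57% of all genes, with 3 at an unadjusted p under 0.05. None passed for a change with age of the difference from wild type in the mild line (0.0666% of all genes) or in the severe line (0.683%), with 3 and 0 at an unadjusted p under 0.05. The shares of all genes at the unadjusted level are not given here, so those counts are not read as results about the members. In the mild line 7 of the 9 changes were negative, with the median at -0.17, beside 0.00 for all genes. The change for Synpo2l was -0.68 ± 0.34 and for Xirp2 -0.59 ± 0.28 in the mild line. For the severe line those changes were 0.13 ± 0.34 and -0.17 ± 0.28.

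Within groups, hearts could share deviations across members. Of the 36 pairs of members, 7 correlated at a Pearson adjusted p under 0.05 after centring on the group means (24 hearts, two-sided permutation test within groups, adjusted over the 36 pairs), and 6 did by Spearman's rho. Pdlim1 and Des had r = 0.69 (permutation p = 0.00013, adjusted p = 0.0047) and rho = 0.73 (permutation p = 9.0e-05, adjusted p = 0.0032), and r = 0.65 without the 2 hearts farthest from the median of Pdlim1. Nrap and Des had r = 0.72 (permutation p = 0.00052, adjusted p = 0.0094) and rho = 0.75 (permutation p = 0.0013, adjusted p = 0.016), and r = 0.77 without the 2 farthest. Ankrd1 and Pdlim1 ran in opposite directions, with r = -0.68 (permutation p = 0.0017, adjusted p = 0.016) and rho = -0.68 (permutation p = 0.0021, adjusted p = 0.019), and r = -0.57 without the 2 farthest. The other pairs past the threshold were Nrap with Csrp3 and Pdlim1, Csrp3 with Des, and Synpo2l with Flnc (r = 0.57 to 0.76).

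A pair of hearts stood at the ends of many members. Severe line heart 5 at 24 weeks had the lowest Nrap, Csrp3, Pdlim1 and Des and the highest Synpo2l and Ankrd1 of its group. Wild type heart 2 at 24 weeks had the lowest Nrap, Csrp3, Pdlim1, Ldb3 and Des and the highest Xirp2, Synpo2l, Ankrd1 and Flnc of its own. They are the 2 hearts with the largest shares of detected probes, 44.4% and 43.4%, and the part of that in the pattern was not tested. How many of all genes had these hearts at the ends of their groups is not given here. Without both, 0 of 36 pairs passed by this permutation test, with 8 at an unadjusted p under 0.05. Nrap and Pdlim1 then had r = 0.27 in place of 0.57, while the other 6 pairs stayed at 0.56 or more in size, among them Nrap and Csrp3 (0.76, adjusted p = 0.058), Pdlim1 and Des (0.63, adjusted p = 0.058) and Ankrd1 and Pdlim1 (-0.56, adjusted p = 0.095). Centred on the groups within each background set, 0 pairs passed, with 6 at an unadjusted p under 0.05, and the 7 pairs kept r of 0.59 to 0.74 in size, among them Pdlim1 and Des (0.71, adjusted p = 0.096) and Nrap and Des (0.74, adjusted p = 0.099). With the raw intensities scaled to a common median in place of quantile normalization, 28 pairs passed, all positive, and the Ankrd1 and Pdlim1 pair had r = 0.35 in place of -0.68.

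**Figure D4:**
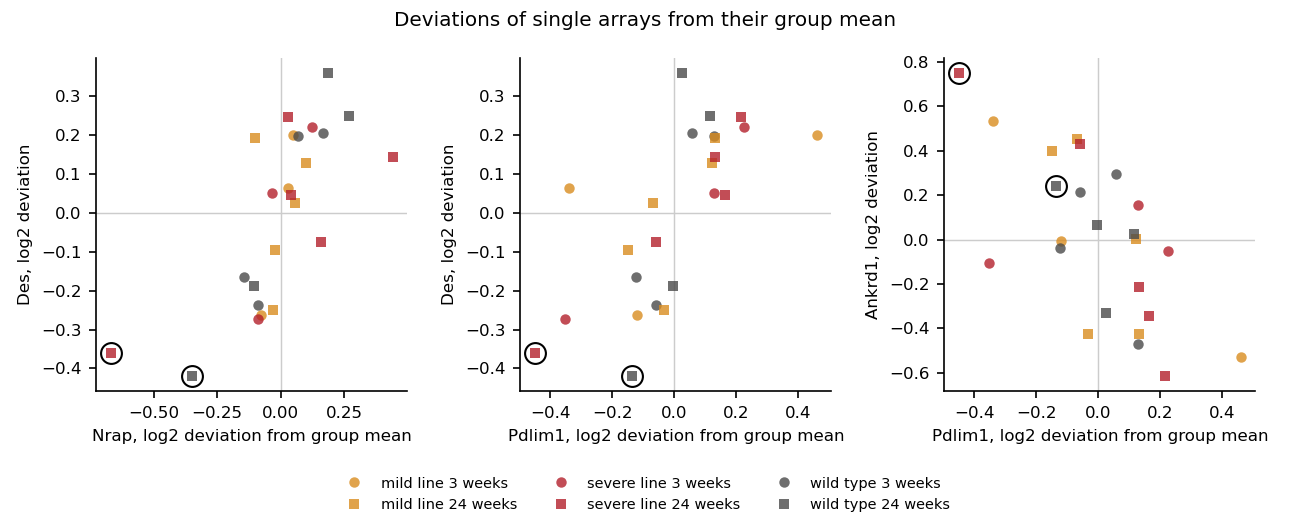
Deviation of each heart from the mean of its group in log2 units, for Nrap and Des, Pdlim1 and Des, and Pdlim1 and Ankrd1 (x and y axes), with 24 hearts coloured by line and shaped by age. Circles mark severe line heart 5 and wild type heart 2 at 24 weeks. Both lie at the lower left for Nrap and Des, where r was 0.72, and at the upper left for Pdlim1 and Ankrd1, where r was -0.68.

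The genes whose levels ran most like those of each member over the 24 arrays, with the differences between groups left in, are given as a description. Xirp2 ran closest to Lrp11 (r = 0.95), Calhm5 (0.95) and Fhl1 (0.93), and Synpo2l to Tmem43 (0.91), Nppb (0.91) and App (0.90). For Flnc they were Ttc7b (0.92), Tnfrsf12a (0.90) and Ppm1e (0.89), for Pdlim1 Tceal5 (0.92), Spsb4 (0.92) and Haus8 (0.91), and for Des Nrn1l (0.90), Mllt11 (0.90) and Rasa3 (0.90). For Ankrd1 they were Hspb8 (0.89), Cpeb1 (0.89) and Abat (0.88), and for Nrap Tbc1d22a (0.91), Car11 (0.88) and Sergef (0.85). Ldb3 ran closest to Tmem38a (0.83), Ckm (0.83) and Pfkm (0.81), and Csrp3 to Rusc1 (0.75), Mical3 (0.74) and Hexim2 (0.71). Among the members themselves the most alike were Xirp2 and Synpo2l (r = 0.87), and Synpo2l and Flnc (r = 0.86). All r share the same 24 arrays and normalization.

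Other genes of the same structures were counted over 3 lists, chosen with earlier results of these data known. The shares of all genes that passed, in the order of the 4 comparisons below, were 2.33%, 4.62%, 0.966% and 15.6%. Of 23 other Z-disc genes listed, 19 were tested. In the mild line at 3 weeks 2 rose and none fell, myotilin (Myot, a Z-disc actin binder) by 1.22 ± 0.23 (adjusted p = 0.0024) and the co-chaperone Bag3 by 0.49 ± 0.12 (adjusted p = 0.030). Severe line hearts at 3 weeks had Pdlim7 and Ankrd2 higher, by 0.64 ± 0.18 and 0.49 ± 0.12, and none fell. At 24 weeks none passed in the mild line, and in the severe line 3 rose and 1 fell. Ankrd23, a relative of Ankrd1, rose by 0.82 ± 0.18 (adjusted p = 0.0019), and the PDZ and LIM genes Pdlim7 and Pdlim3 by 0.66 ± 0.16 and 0.52 ± 0.14. The formin Fhod3, which assembles actin in sarcomeres, fell by 0.72 on the log2 scale (SE 0.12, adjusted p = 0.00010). The 4 of 19 called there stand beside 15.6% of all genes. The medians of the list in these 4 comparisons, in the order given, were 0.12, 0.17, 0.15 and 0.09. Between lines at 24 weeks the severe line was higher for Ankrd23 and lower for Myot, Mypn and Fhod3.

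Of 17 other intercalated disc genes, 15 were tested and none rose in either line at either age. Gja1, which encodes the gap junction protein connexin 43, fell in the mild line at 3 weeks (-0.59 ± 0.11, adjusted p = 0.0035). The desmosomal cadherin Dsg2 fell in the severe line at 24 weeks (-0.80 ± 0.14, adjusted p = 0.00020) and so did Lmo7 (-0.42 ± 0.13, adjusted p = 0.023), 2 of 15 beside 15.6% of all genes. The medians of the list lay between -0.04 and 0.05 in these 4 comparisons. Of 22 genes of costameres and intermediate filaments, 20 were tested. None passed in the mild line at either age. The intermediate filament genes Nes and Synm rose in the severe line at both ages, Nes by 0.92 ± 0.19 at 3 weeks and 0.84 ± 0.16 at 24 weeks, and Synm by 0.70 ± 0.14 and 0.92 ± 0.12. Filamin A (Flna), which cells other than muscle also use, rose at 24 weeks by 0.72 ± 0.17 (adjusted p = 0.0037), and α-sarcoglycan (Sgca) fell (-0.40 ± 0.09, adjusted p = 0.0033), so that 4 of 20 were called at that age.

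Markers of other cells moved in the same hearts. In the severe line at 24 weeks 4 of 6 fibroblast markers rose (Col1a1, Col1a2, Col3a1 and Dcn), 2 of 4 smooth muscle markers (Acta2 and Tagln) and 2 of 4 macrophage markers (Adgre1 and Lgals3), and none of these fell. Over all genes 15.6% passed in that comparison. Tagln was detected on 14 arrays. The mean log2 level of the fibroblast list was 9.47 to 10.25 in severe line hearts and 9.07 to 9.29 in mild line hearts, against 8.85 to 9.19 in wild type hearts. That of the smooth muscle list was 9.67 to 10.53 and 9.58 to 9.94 in those lines, against 9.41 to 9.73 in wild type hearts, and that of the macrophage list 8.61 to 9.34 and 7.93 to 8.41, against 7.98 to 8.34. At 3 weeks the fibroblast list was at 9.90 to 10.06 in mild line hearts and 9.89 to 10.27 in severe line hearts. Wild type hearts were at 9.53 to 9.72. Past the threshold were 0 and 1 of its 6 markers in the mild and severe lines, against 2.33% and 4.62% of all genes. Tagln rose in the severe line at that age, and 1 of 4 macrophage markers fell there. Pdlim1 and Des are made in smooth muscle or other cells of the heart as well, and the part of such cells in the differences was not tested. The 5 ventricular markers had a mean level of 13.59 to 14.15 in severe line hearts and 13.79 to 14.08 in mild line hearts at 24 weeks, against 13.68 to 14.13 in wild type hearts. Of 4 atrial markers, Sln and Myl7 fell in the mild line at 3 weeks, Sln in the mild line and Myl7 in the severe line at 24 weeks. Of 8 skeletal muscle markers listed, 3 were tested. Tnni2 (6.70 to 9.25 log2) and Mylpf (6.73 to 7.14) were detected on all 24 arrays and passed in none of the 4 comparisons with wild type. Tnnt3, detected on 5 arrays, rose in the severe line at 24 weeks by 0.31 ± 0.10 (adjusted p = 0.030).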

How the data were processed

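RNA from the whole hearts of 24 mice was put on arrays of 45281 probes (Illumina MouseWG-6 v2), and groups, lines and ages were taken from the sample labels. Replicates are separate mice per the labels. Wild type hearts are numbered in order of accession, hearts 1 and 2 at 3 weeks and 3 and 4 at 24 weeks being littermates of the severe line. The authors deposited a raw intensity per probe and array, a log2 value of that signal after quantile normalization between arrays, and a detection p-value against the negative control beads. The software of this step was not given in the sources used here. Quantile normalization gives all arrays 1 distribution, so a shift of most genes is removed, and without background correction fold changes of dim probes are understated. Another 48 columns with values of single samples were left out.

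Probes with 1 symbol in the platform annotation (34885, with 18 of several and 10378 of none) were kept where the detection p was under 0.05 on 3 or more arrays, 18907 in all, and the brightest stood for each of 12011 genes. The 6 groups were fitted together with limma 3.58.1 in R 4.3.3 (lmFit, eBayes) and Benjamini-Hochberg adjustment over the 12011 genes, or over 18907 probes where each probe was fitted. The step was tested on simulated arrays. Pairs of members were tested with 100000 permutations within groups (Python 3.11.15, numpy 2.4.6, pandas 2.3.3, scipy 1.17.1, matplotlib 3.10.9). The number of arrays limits the precision.

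Every member is named with its probes, and of each gene list at most 4 genes with the largest log2 change among those past the threshold of a comparison. For each member the 3 other genes with the highest Pearson r over 24 arrays are named. Members, lists and rules were chosen with earlier results of these data known. Alternatives changed the scaling, the background correction (normexp, offset 16), the choice of probe, the samples in the fit, blocks for replicate number or runs of 6 successive arrays, the background set, and left out each heart.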

Additional observations from a re-analysis of the deposited data

Results flagged for a closer look

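Among 76 sets of probe and group with 4 or 5 hearts, 6 held a value far from the rest by Dixon's test at the 95% level, at which chance flags about 5% of sets. For Synpo2l these were wild type heart 1 at 3 weeks (7.97, highest) and severe line heart 5 at 24 weeks (9.86, highest). The second Ankrd1 probe also had severe line heart 5 at 24 weeks as its highest value (13.95). Among Ldb3 probes, wild type heart 2 at 24 weeks was lowest for the probe of NM_001039073 (9.12) and highest for that of NM_001039075 (9.31), and mild line heart 4 at 24 weeks was lowest for the dim probe of NM_011918 (6.54). Of the 6 values, 4 came from the 2 hearts with the largest shares of detected probes, and the part of that share in them was not tested.

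The difference between the severe and the mild line at 24 weeks passed for Xirp2 (0.96), Synpo2l (0.86) and Ldb3 (-0.45), which marks a difference between the effects of the lines against the shared wild type hearts. Without severe line heart 5 they were 0.99, 0.71 and -0.46, all past the threshold (adjusted p = 0.00080, 0.025 and 0.0044).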

How the results depend on the processing

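No difference called for a member changed its sign under any alternative that gave 1 value per gene. The fit with each kept probe as its own row is left out of the counts that follow. In that fit 1 Ldb3 probe gave 0.21 in the severe line at 24 weeks, against -0.34 on the brightest. Of 400 alternatives of the 19 called values, 340 stayed past the threshold and 60 did not. Of 1418 alternatives of the 62 values not called, 23 passed and 92 changed sign without passing. Ldb3 in the severe line at 24 weeks missed in 10 of 22 (-0.56 to -0.07) and Synpo2l in the mild line at 3 weeks in 9 of 20 (0.80 to 1.48).

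The counts of members called moved as follows, and the cause was not tested. The share of all genes called can move with the setting too. It is not given beside these counts or beside those with single hearts left out. The counts are therefore not read as results about the members alone. With raw intensities scaled to a common median, the mild line gave 1 at 3 weeks and 0 at 24 weeks. That scaling shifted the median of all genes by 0.11 for the severe line at 3 weeks and between lines at both ages. With the wild type littermates of each line only, the mild line gave 2 and 0 at 3 and 24 weeks and the severe line 3 at 3 weeks. With array weights the mild line gave 2 at 24 weeks and the comparison of lines 1 at 3 weeks. On the 12 arrays of higher background the counts were 1 and 0 for the mild line and 1 and 3 for the severe line at 3 and 24 weeks, and 0 between lines at 24 weeks. On those of lower background they were 0 for the mild line at 24 weeks, 2 and 3 for the severe line, and 1 between lines at 24 weeks. These fits had fewer samples, and at each age a set held the wild type littermates of 1 line only. The lower set held 1 heart of each line at 3 weeks, taken to vary like the other groups. At the threshold of the methods they were 0 for the mild line at 24 weeks, 3 and 2 for the severe line and 0 between lines at 24 weeks. For wild type with age the count was 1 in place of 0 with the mean of all kept probes, each kept probe as its own row, the groups of the comparison alone, array weights, or runs of 6 arrays as a block.

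With the replicate block the count for wild type with age was 1, and no other count moved by over 1.5 times. Same-numbered hearts of a line and its own wild type littermates did not deviate together in every pair (correlations -0.29 to 0.33), and the labels tie no litter or day to a number, so the block was not taken as a pairing. Transgenic hearts numbered 1, 2 and 3 lay in runs 1, 2 and 3 of 6 successive arrays, and 1662 genes differed between runs, so the block also takes up part of the run. Leaving out single hearts gave 1 to 4 members in the mild line at 3 weeks (1 without mild line heart 3) and 0 to 1 at 24 weeks (0 without mild line heart 2). It gave 3 to 5 in the severe line at 3 weeks (3 without heart 1 or 3), 5 to 7 at 24 weeks, 0 to 1 between lines at 3 weeks (1 without severe line heart 2) and 3 to 4 at 24 weeks.

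The 7 correlated pairs became 28 with median scaling, 3 with the mean of all kept probes, and 0 when centred within background sets. In settings chosen after seeing the data they became 4 without wild type heart 2 at 24 weeks, 5 without severe line heart 5 and 0 without both. The rises of the gene lists at 3 weeks, 2 each for the Z-disc list in both lines and the costamere list in the severe line, were 0 in at least 1 alternative, as were the falls of the lists. In the severe line at 24 weeks the 3 rises of the Z-disc list ranged from 1 to 6 and the 3 of the costamere list from 1 to 3.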
